A study of Mus musculus with 12 samples.

Results

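The NF-kB subunits and their feedback inhibitors are followed here in regulatory T cells (Treg) with and without Ikaros. The 10 genes were chosen by name: the 5 subunit genes Nfkb1, Nfkb2, Rel, Rela and Relb, the IkB genes Nfkbia, Nfkbib, Nfkbie and Nfkbiz, and Tnfaip3. They were 10 of the 36222 genes in the table, and the rule that chose them used no measured value, although it was set with earlier results of these data known. The data were 12 RNA-seq libraries, 3 in each of 4 groups. The WT mice carried the Foxp3-YFP-Cre, and the cKO mice carried the same Cre with a floxed Ikzf1, the gene of Ikaros, so that both genotypes shared the Cre and the reporter. Treg were sorted from CD4+ spleen cells of single mice by the YFP that the Cre allele marks, and the Cre acts only in cells that express Foxp3. WT ex vivo and cKO ex vivo cells, from mice of 6 to 8 weeks, were lysed without stimulation. WT stimulated and cKO stimulated cells were first held for 4 h on antibodies to CD3 and CD28 bound to the plate, each at 1 µg/ml. The study's text gives no age for the mice of the stimulated groups and does not say whether the same mice gave both kinds of library.

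NF-kB proteins are dimers of 5 related subunits that bind DNA through a shared Rel domain. In resting cells IkB proteins hold these dimers in the cytoplasm. Signals from the T cell receptor and CD28 pass through adaptor proteins such as BCL10 and MALT1 to the IKK kinases, which mark IkB for destruction. Several IkB genes and Tnfaip3 are themselves targets of NF-kB, so that the pathway builds its own brakes. In Treg, c-Rel is known for its part in the onset of Foxp3 expression in the thymus.

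Values are scaled TPM, that is the deposited TPM (transcripts scaled to a sum of 1000000) divided by a factor for each library so that most genes align between libraries. TPM are corrected for gene length, so levels may be compared between genes. Behind the members' values lay 309 to 116070 reads per gene and library (recovered as whole numbers from the deposited values), of 8208659 to 20247649 assigned reads. Changes are differences of log2(scaled TPM + 1) fitted by limma to all 12 libraries. A gene was called when its p, adjusted by the Benjamini-Hochberg method over the 13318 genes that averaged 5 TPM or more in any group, was under 0.05. All 10 members were among them. The filter also chooses the genes that set the scaling factors, and many calls depend on it. With a filter of 1 TPM, which tests 33873 genes and sets the factors on them, the factor of cKO stimulated 3 went from 0.732 to 1.13, and 57 genes (0.168%) and no member were called for genotype ex vivo in place of 704 genes and 4 members. Both changes were also made singly, in fits added after the data were seen. Testing the 33873 genes with the factors of the 5 TPM genes called 390 genes (1.15%) and 4 members, whereas testing the 13318 genes with the factors of the 1 TPM genes called 92 genes (0.691%) and no member. The loss of the members' ex vivo calls thus came with the factors. The 1 TPM filter below stands for both changes together. The 1248 olfactory receptor genes, which T cells are not known to use, had median TPM of 0.734 and 0.897 in WT and cKO ex vivo and 0.993 and 1.05 in WT and cKO stimulated.

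Some properties of the libraries bear on every value. Ikzf1 stood at 33.03 to 42.1 scaled TPM in cKO ex vivo against 104 to 114 in WT, and at 23.3 to 30.1 in cKO stimulated against 66.7 to 71.1 in WT, so its transcript fell in cKO but was not lost. The 6 Treg markers summed to 791 TPM or more in every library, whereas the sums were at most 16.3 TPM for 2 CD8 T cell markers, 13.0 for 4 myeloid, 9.85 for 3 B cell, 5.80 for 2 NK cell and 4.77 for 3 erythroid markers. The myeloid sum was 6.09 to 7.97 TPM in WT ex vivo and 9.13 to 13.0 in WT stimulated, and its part in the results was not tested. The controls of T cell stimulation went partly against the labels. Of the 5 controls, Tnfrsf9 and Egr2 rose in both genotypes (log2 change in WT 1.85 and 1.48), but Cd69, an early activation marker, fell by 1.36 in WT and by 1.71 in cKO on the log2 scale. Nr4a1, an immediate early gene, fell by 0.55 in WT (adjusted p = 0.0307) and was at 0.16 in cKO (adjusted p = 0.464). Egr1, another such gene, was at -0.58 in WT (adjusted p = 0.0964) and fell by 0.69 in cKO (adjusted p = 0.0404). The stimulated libraries were therefore lower in Cd69 than those lysed directly, and what the sort and handling did to the ex vivo cells was not tested. One transcript, Gm10800, held 17.7% to 39.8% of the TPM in WT ex vivo and 20.4% to 24.4% in cKO ex vivo, but 42.9% to 55.9% in cKO stimulated and 32.6% to 44.4% in WT stimulated. This share moved with stimulation, and its part in the stimulation effects was not tested. In the other 11 libraries Xist was at most 1.86 scaled TPM, but WT ex vivo 3 had 191, so that library came from a female mouse. In bulk RNA a lower level in fewer cells and a lower level per cell cannot be told apart.

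RefSeq promoter entries (GRCm38.p6) matched 7 of the 10 members, and 4 of them are printed because they belong to the 3 inhibitor genes and the subunit gene on which most of the comparisons below turn. Each sequence is the 250 bases before the transcription start, 5′ to 3′ on the strand of the gene. Capitals mark a form of the kB site on either strand, namely GGG, then any 3 bases, then TTCC.
Nfkbia (chr12:55492648-55492897, minus strand): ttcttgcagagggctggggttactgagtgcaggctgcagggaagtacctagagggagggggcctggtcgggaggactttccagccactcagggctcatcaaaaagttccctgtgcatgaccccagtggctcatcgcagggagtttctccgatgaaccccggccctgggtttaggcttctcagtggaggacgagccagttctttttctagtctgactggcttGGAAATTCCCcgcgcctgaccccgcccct
Nfkbie (chr17:45555450-45555699, plus strand): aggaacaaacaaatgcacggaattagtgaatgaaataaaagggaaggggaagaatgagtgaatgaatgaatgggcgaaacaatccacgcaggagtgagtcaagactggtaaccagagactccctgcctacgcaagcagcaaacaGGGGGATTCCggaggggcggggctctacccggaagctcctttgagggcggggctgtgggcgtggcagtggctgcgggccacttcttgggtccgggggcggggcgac
Rel (chr11:23770970-23771219, minus strand): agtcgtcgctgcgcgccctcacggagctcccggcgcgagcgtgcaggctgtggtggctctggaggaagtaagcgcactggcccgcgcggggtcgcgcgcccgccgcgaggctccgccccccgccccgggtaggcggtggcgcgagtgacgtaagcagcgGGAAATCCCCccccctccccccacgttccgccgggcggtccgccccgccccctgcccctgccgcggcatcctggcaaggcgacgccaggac
Tnfaip3 (chr10:19015411-19015660, minus strand): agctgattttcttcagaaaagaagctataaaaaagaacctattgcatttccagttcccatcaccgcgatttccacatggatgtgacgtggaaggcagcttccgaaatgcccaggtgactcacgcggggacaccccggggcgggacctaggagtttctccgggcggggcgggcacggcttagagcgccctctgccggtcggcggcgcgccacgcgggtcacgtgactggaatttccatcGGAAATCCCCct
These letters were picked from 9 patterns after the promoters had been seen. Of the 7 members, 5 held a match in at least 1 of their 10 entries in all, against 4.65% of the 32851 promoters of that length. Members were counted by gene over all their entries (3 for Nfkb2, 2 for Tnfaip3), but the 32851 promoters singly. The 2 sides are therefore not on the same unit, also for the patterns that follow. The core GGGAA, which resembles the sequence that Ikaros binds, was held by all 7 members and by 56.2% of all promoters. The other 7 patterns, which fixed more or fewer of the letters from GGG to CC, were each held by 2 to 6 members and by 0.28% to 45.8% of all promoters. In Nfkbia the kB-type match lay 29 to 20 bases before the start and in Rel 91 to 82 bases before it, and each overlapped 1 GGGAA. In Nfkbie it lay 106 to 97 and in Tnfaip3 12 to 3 bases before the start, with no GGGAA over it. The Tnfaip3 sequence is the first of 2 entries. In the other, the kB-type match lay 90 to 81 bases before the start and overlapped 1 GGGAA. A match is a stretch of letters, not a measured site.

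Ex vivo, the genes of the inhibitors IkBα and IkBε stood highest above WT in cKO Treg, followed by those of the subunits c-Rel and RelB. Of the 10 members, 4 were called and all 4 were higher in cKO, where 3.62% of the 13318 genes were called higher and 5.29% in either direction. Another 5 were higher without being called, and Tnfaip3 alone had a negative change. The members' median change was 0.54, against -0.0069 over all genes tested. In 7 members (Nfkb2, Rel, Relb, Nfkbia, Nfkbib, Nfkbie and Nfkbiz) every cKO ex vivo library lay above every WT ex vivo library, which held for 11.6% of all genes. Voom, the limma fit that weights reads by their precision, called 7 members on the recovered reads, where it called 9.03% of all genes, and quantile normalization called 8, against 5.05%.

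**Figure D1:**
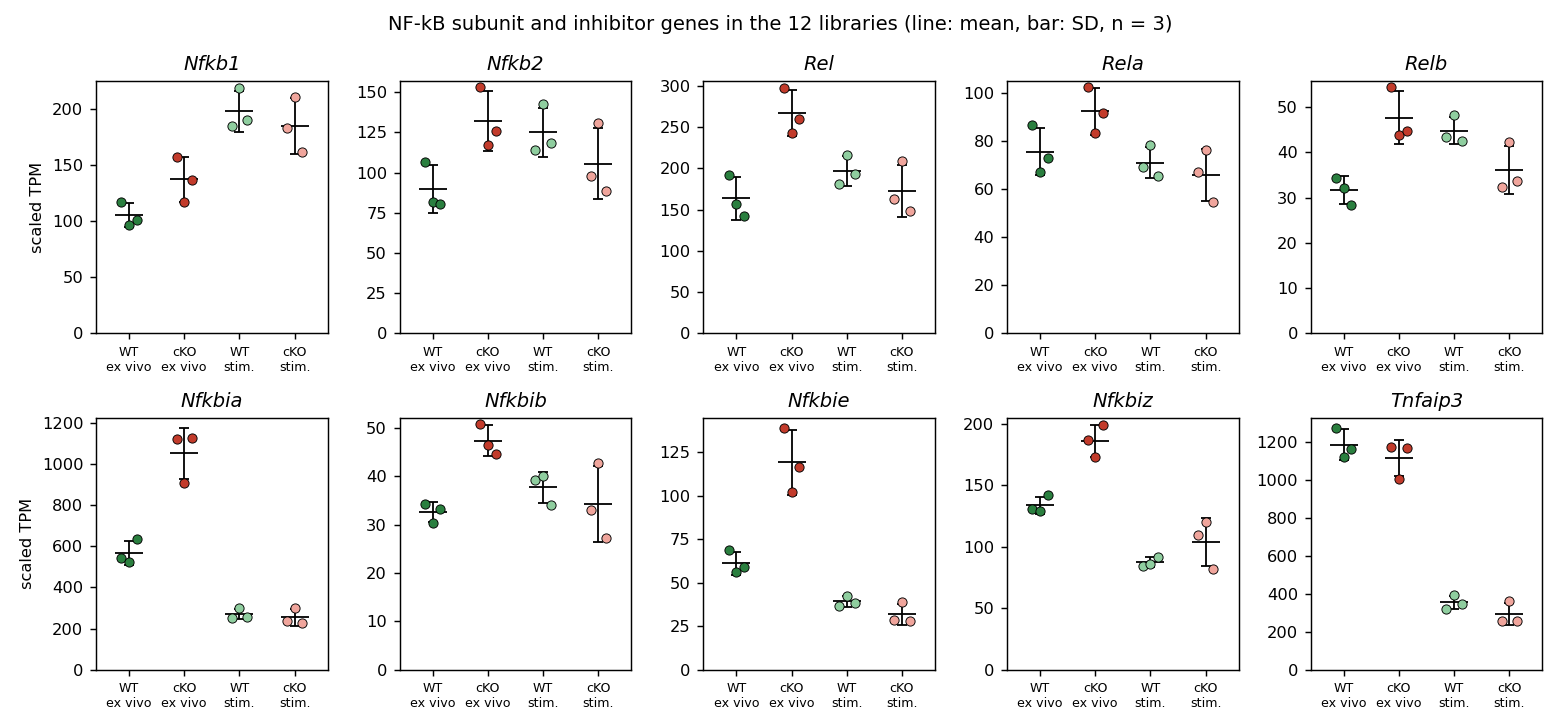
Scaled TPM of each of the 10 genes (vertical axes, from 0) in the 12 libraries, grouped along the horizontal axis by condition and, within it, by genotype. Points are libraries, the long line is the group mean and the bar the SD (n = 3). Nfkbia and Nfkbie stand highest in cKO ex vivo, while Tnfaip3 stands at 1007 scaled TPM or more in both ex vivo groups.

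Nfkbia (ENSMUSG00000021025, mm9 chr12:56590398-56593634, minus strand) encodes IkBα, the inhibitor that is degraded and made again after a signal. It measured 541, 526 and 637 scaled TPM in the WT ex vivo libraries and 1122, 908 and 1127 in the cKO ex vivo libraries. The groups did not overlap, and their means were 568 ± 60.0 and 1052 ± 125 (SD, n = 3). This was a 1.85-fold difference, a log2 change of 0.89 ± 0.14 (SE, adjusted p = 0.00559). Nfkbie (ENSMUSG00000023947, mm9 chr17:45692665-45700118, plus strand), the gene of IkBε, measured 68.6, 56.0 and 59.2 in WT and 139, 102 and 116 in cKO. The lowest cKO library was above the highest WT library, and the change was 1.92-fold, or 0.94 ± 0.15 (SE, adjusted p = 0.00492) on the log2 scale. Both calls remained with any single library left out, with adjusted p up to 0.0302 for Nfkbia and 0.0232 for Nfkbie. Under the 1 TPM filter the changes were 0.87 and 0.93 with adjusted p of 0.444 and 0.363.

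Rel (ENSMUSG00000020275, mm9 chr11:23641514-23670970, minus strand), the gene of c-Rel, measured 192, 157 and 142 scaled TPM in WT ex vivo and 298, 243 and 259.8 in cKO ex vivo. The groups were apart and the log2 change was 0.71 ± 0.15 (SE, adjusted p = 0.0224). Relb (ENSMUSG00000002983, mm9 chr7:20191566-20214787, minus strand), whose product pairs with the Nfkb2 product in the non-canonical pathway, measured 34.4, 32.2 and 28.3 in WT and 54.5, 43.9 and 44.7 in cKO, a log2 change of 0.57 ± 0.12 (SE, adjusted p = 0.0228). Both calls were lost without WT ex vivo 2, WT ex vivo 3, cKO ex vivo 1 or cKO ex vivo 3, where the changes were 0.61 to 0.73 for Rel and 0.48 to 0.62 for Relb, with adjusted p up to 0.0877 and 0.0872. They were also lost with the TPM as deposited, at 0.95 and 0.81 (adjusted p = 0.0683 and 0.0564). WT ex vivo 3 is the library from a female mouse.

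The other subunit genes moved by less. Nfkb2 (ENSMUSG00000025225, mm9 chr19:46379227-46386580, plus strand), which encodes the p100 precursor, measured 107, 81.5 and 80.4 scaled TPM in WT ex vivo and 153, 117 and 126 in cKO ex vivo, with a log2 change of 0.56 ± 0.17 (SE, adjusted p = 0.0935). Its groups did not overlap although it missed the threshold. Nfkb1 (ENSMUSG00000028163, mm9 chr3:135247619-135354511, minus strand), which encodes the p105 precursor, overlapped between the groups, with 117, 96.6 and 101 in WT and 157, 117 and 136 in cKO and a change of 0.38 ± 0.14 (SE, adjusted p = 0.166). Rela (ENSMUSG00000024927, mm9 chr19:5637483-5648130, plus strand), the gene of p65, changed least among the subunits, by 0.29 ± 0.14 (SE, adjusted p = 0.314), and its libraries overlapped too.

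Among the other inhibitors, Nfkbib (ENSMUSG00000030595, mm9 chr7:29543270-29552531, minus strand), the gene of IkBβ, measured 34.3, 30.2 and 33.2 scaled TPM in WT ex vivo and 50.9, 46.4 and 44.7 in cKO ex vivo, and just missed the threshold with a log2 change of 0.52 ± 0.14 (SE, adjusted p = 0.0567). Nfkbiz (ENSMUSG00000035356, mm9 chr16:55811488-55839012, minus strand) encodes IkBζ, a nuclear protein that works with p50 at target genes and does not hold dimers in the cytoplasm. It measured 131, 129 and 142 in WT and 187, 173 and 199 in cKO, a change of 0.47 ± 0.13 (SE, adjusted p = 0.0579). Tnfaip3 (ENSMUSG00000019850, mm9 chr10:18720716-18735463, minus strand) encodes A20, the ubiquitin editor that stops signaling upstream of IKK. It was the most abundant member and measured 1277, 1122 and 1165 in WT and 1176, 1007 and 1171 in cKO. Its groups overlapped and the change of -0.09 ± 0.15 (SE, adjusted p = 0.836) turned positive with the TPM as deposited and with quantile normalization. The 95% interval was -0.41 to 0.23. Reads of Nfkb2 and Nfkbib are counted by strand, which matters because Psd and Sirt2 overlap them on the other strand.

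**Figure D2:**
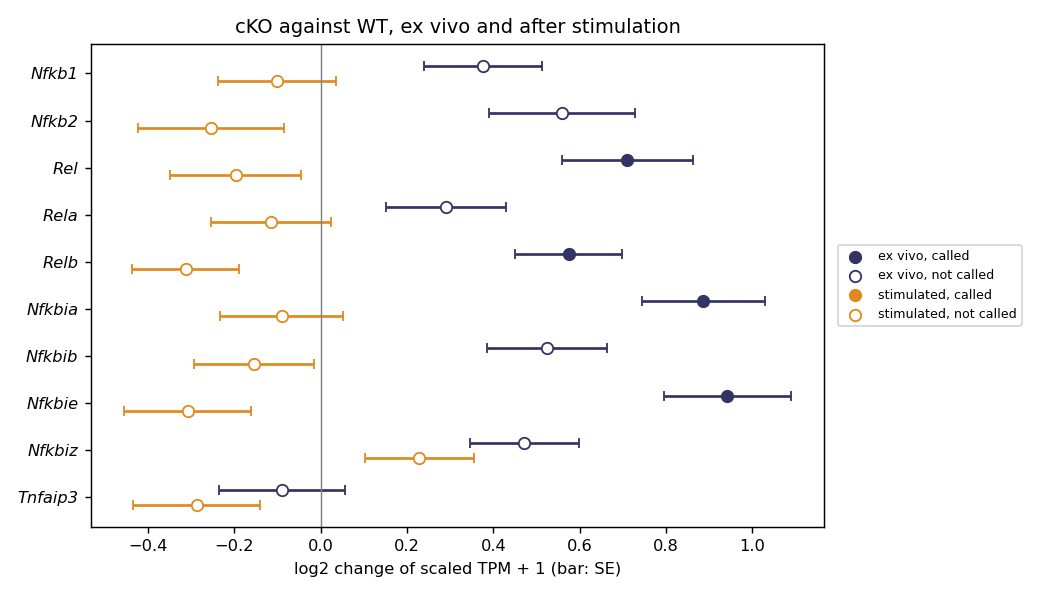
Log2 change of cKO against WT for the 10 genes, ex vivo (dark) and after stimulation (orange), with the SE as bars. Filled points are called and open points are not. Ex vivo the 4 called genes lie between 0.57 and 0.94, and after stimulation no point is filled.

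After stimulation no member was called between the genotypes, where 6.93% of the 13318 genes were called. By limma 1 of the 10 had an unadjusted p under 0.05, as did 3166 of all 13318 genes, and voom on the recovered reads, which called 9.36% of all genes, called none either. Quantile normalization called Nfkbiz alone, against 11.9% of all genes. The changes ran from -0.31 for Relb to 0.23 for Nfkbiz, with a median of -0.18 against -0.035 over all genes. Nfkbia measured 253, 299 and 258 scaled TPM in WT stimulated and 239, 301 and 225 in cKO stimulated, and the 95% interval of its log2 change was -0.40 to 0.22. For Rel the values were 181, 216 and 193 against 163, 209 and 148, with an interval of -0.53 to 0.14. The intervals bound the differences that these libraries allow and do not show that the genotypes were alike. Relb was the only member whose groups did not overlap, at 43.5, 48.2 and 42.6 in WT and 32.3, 42.2 and 33.7 in cKO (adjusted p = 0.159), where 18.0% of all genes had every cKO library lower.

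The count at an unadjusted p under 0.05 rose to 6 of the 10 without cKO stimulated 2, beside 3574 of the 13318 genes, where the members' median was -0.33 and none was called. The library cKO stimulated 3, which had the fewest assigned reads and the largest share of Gm10800, was lowest of its group for 8 of the 10 members. In the other groups cKO ex vivo 2 was lowest for 9, and WT ex vivo 2 and WT stimulated 1 for 7 each. Without cKO stimulated 3 the changes of Nfkb1, Rela, Nfkbia and Nfkbib turned to 0.025, 0.046, 0.026 and 0.027, and Nfkbiz was called at 0.42. Nfkbiz measured 84.6, 85.9 and 91.9 scaled TPM in WT stimulated and 109, 120.2 and 82.2 in cKO stimulated. Its positive change of 0.23 turned negative under the 1 TPM filter, with no filter and with the TPM as deposited.

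The 4 h of stimulation went with lower levels of several inhibitor genes and a higher level of Nfkb1. In WT, 6 members were called, 2 higher and 4 lower, where 12.7% of all genes were called higher and 19.3% lower. Quantile normalization turned that balance, with 6 members called higher and 2 lower, where 15.5% of all genes were called higher and 14.4% lower. Tnfaip3 fell from 1188 ± 80.3 to 355 ± 36.5 scaled TPM (SD, n = 3), a log2 change of -1.74 ± 0.15 (SE, adjusted p = 1.4e-05). The stimulated libraries, at 323, 395 and 347, all lay below the ex vivo libraries. With quantile normalization the change was -0.88. Nfkbia fell by a factor of 2.10, or -1.07 ± 0.14 (SE, adjusted p = 0.00024) on the log2 scale. Nfkbie and Nfkbiz fell by less, with changes of -0.63 ± 0.15 (SE, adjusted p = 0.00784) and -0.61 ± 0.13 (SE, adjusted p = 0.004). With quantile normalization Nfkbie was at -0.32, and Nfkbia and Nfkbiz lost their calls, at -0.19 and -0.14 (adjusted p = 0.111 and 0.214). With the TPM as deposited Nfkbie and Nfkbiz lost theirs, at -0.43 and -0.41 (adjusted p = 0.211 and 0.272).

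Nfkb1 rose in WT from 117, 96.6 and 101 to 184, 218 and 190.3 scaled TPM, a log2 change of 0.91 ± 0.14 (SE, adjusted p = 0.00054), which quantile normalization moved to 1.47. Relb rose as well, from 34.4, 32.2 and 28.3 to 43.5, 48.2 and 42.6, a change of 0.49 ± 0.12 (SE, adjusted p = 0.0112). Nfkb2 missed the threshold at 0.48 ± 0.17 (SE, adjusted p = 0.0508) although its groups were apart. Rel at 0.27 ± 0.15 (SE, adjusted p = 0.195), Nfkbib at 0.20 ± 0.14 (SE, adjusted p = 0.296) and Rela at -0.09 ± 0.14 (SE, adjusted p = 0.675) overlapped between the groups. Each of the 6 calls remained with any 1 library left out. Under the 1 TPM filter Tnfaip3 and Nfkbia alone were called, with changes of -2.0 and -1.33, where 4.53% of 33873 genes were called lower.

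**Figure D3:**
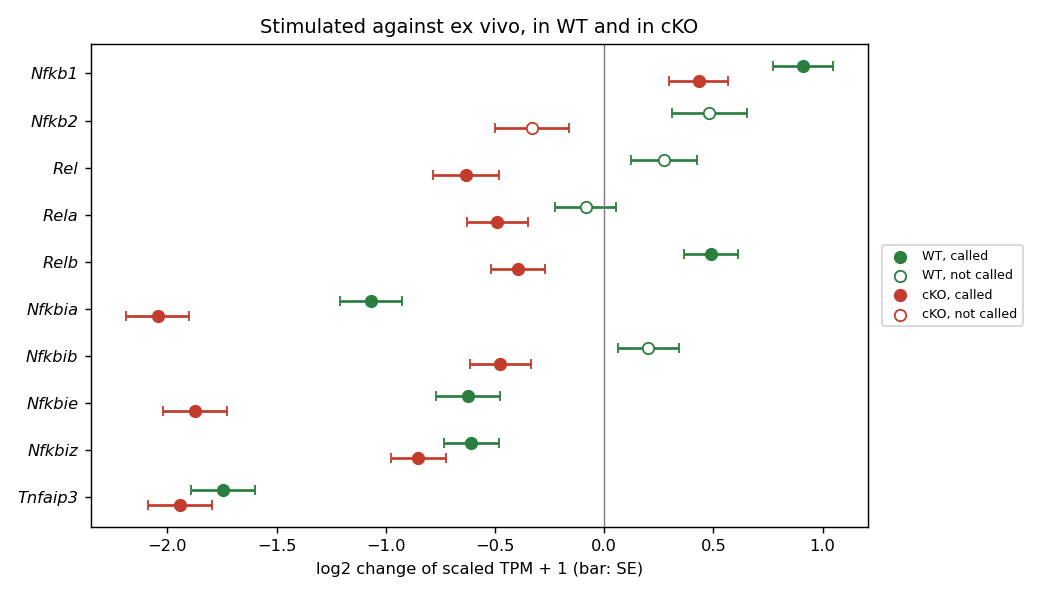
Log2 change of stimulated against ex vivo libraries for the 10 genes in WT (green) and in cKO (red), with the SE as bars. Filled points are called and open points are not. Tnfaip3 lies at -1.74 and -1.94 in WT and cKO, while Nfkbia and Nfkbie lie lower in cKO than in WT.

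In cKO, 9 of the 10 members were called, 1 higher and 8 lower, where 17.3% of all genes were called higher and 26.5% lower. The members' median change was -0.56, against -0.010 over all genes. Nfkbia fell from 1122, 908 and 1127 to 239, 301 and 225 scaled TPM, 4.13-fold lower, with a log2 change of -2.05 ± 0.14 (SE, adjusted p = 3.3e-06). Nfkbie fell from 139, 102 and 116 to 28.5, 38.8 and 28.2, a change of -1.88 ± 0.15 (SE, adjusted p = 5.9e-06). Tnfaip3 fell by 1.94 ± 0.15 (SE, adjusted p = 5e-06) on the log2 scale and Nfkbiz by 0.85 ± 0.13 (SE, adjusted p = 0.0004). These 4 calls were kept in each fit with 1 library left out and under the 1 TPM filter, where 15.2% of the genes were called lower and the members' median was -1.11. Quantile normalization called 5 members, 2 higher and 3 lower, against 39.1% of all genes, 17.2% higher and 21.8% lower. The members' median was then -0.019, Nfkb2 was called higher at 0.35 (adjusted p = 0.0453), and Nfkbiz lost its call at -0.14 (adjusted p = 0.2). The changes of Nfkbia and Tnfaip3 were then -1.25 and -1.27.

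The subunit genes Rel, Rela and Relb were also called lower in cKO, with changes of -0.63 ± 0.15 (SE, adjusted p = 0.00709), -0.49 ± 0.14 (SE, adjusted p = 0.0164) and -0.40 ± 0.12 (SE, adjusted p = 0.0243), but all 3 signs turned with quantile normalization, to 0.076, 0.068 and 0.029. Rel measured 298, 243 and 259.8 scaled TPM before and 163, 209 and 148 after stimulation, so the groups were apart. Nfkbib was called at -0.48 ± 0.14 (SE, adjusted p = 0.0188) and lost with quantile normalization, at -0.067. Without cKO stimulated 3 the calls of Rela, Relb and Nfkbib were lost, with changes of -0.32, -0.31 and -0.28. Rela was also lost without cKO ex vivo 1 (-0.41), and Relb and Nfkbib without cKO ex vivo 1 (-0.30 and -0.42) or cKO stimulated 1 (-0.32 and -0.46). Nfkb1 rose at 0.43 ± 0.14 (SE, adjusted p = 0.0259), but its change was -0.11 under the 1 TPM filter and 0.10 with the TPM as deposited (adjusted p = 0.754), against 1.13 with quantile normalization (adjusted p = 7.8e-06), and the call was lost without cKO ex vivo 2 (0.32), cKO ex vivo 3 (0.43), cKO stimulated 1 (0.44) or cKO stimulated 2 (0.33). Nfkb2, at -0.33 ± 0.17 (SE, adjusted p = 0.133), was the member not called.

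Whether the stimulation effect differed between genotypes was tested by the interaction term, the effect in cKO minus that in WT. It was negative for all 10 members in the fit reported here, and turned positive for Nfkbiz alone, at 0.0054, with quantile normalization. The members' median was -0.75, against -0.035 over all genes. Nfkbie, at -1.25 ± 0.21 (SE, adjusted p = 0.0192), Relb, at -0.89 ± 0.17 (SE, adjusted p = 0.0429), and Nfkbia, at -0.98 ± 0.20 (SE, adjusted p = 0.0494), were called, where 1.10% of all genes were called. Rel followed at -0.91 ± 0.21 (SE, adjusted p = 0.0743). Tnfaip3 had an interval of -0.66 to 0.26 around -0.20. The interaction and the ex vivo genotype effect share their ex vivo libraries, so neither is independent of the other.

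The 3 interaction calls depended on the fit, the scaling, the genes tested and single libraries. Without a mean-variance trend Nfkbie alone was called, where 0.713% of all genes were, and with the TPM as deposited Nfkbia was lost (adjusted p = 0.0552). The 1 TPM filter called none of the 33873 genes (0.00%, 0 members, with 6 of the 10 at an unadjusted p under 0.05 by limma), and with the 33873 genes and the factors of the 5 TPM genes Nfkbie alone was called (0.218% of all genes), while voom on the recovered reads called 6 members and 2.97% of all genes. With 1 library left out the number of members called ran from 0 to 5. Nfkbie lost its call without WT ex vivo 2 or 3, cKO ex vivo 1 or 3, WT stimulated 2 or 3, or cKO stimulated 1, with changes of -1.26 to -1.13. Relb lost it in 9 and Nfkbia in 10 of the 12 such fits, with changes of -0.93 to -0.77 and -1.02 to -0.85. Relb stayed called only without WT ex vivo 1, cKO ex vivo 2 or cKO stimulated 2, and Nfkbia only without cKO ex vivo 2 or cKO stimulated 2.

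The order of the levels changed with stimulation. In WT ex vivo Tnfaip3 stood first at 1188 ± 80.3 scaled TPM, followed by Nfkbia at 568 ± 60.0 and Rel at 164 ± 25.8, and Relb was lowest at 31.6 ± 3.08 (SD, n = 3). Tnfaip3 and Nfkbia were each apart from the next gene, whereas Rel overlapped with Nfkbiz, Nfkb1 with Nfkb2, Nfkb2 with Rela, Rela with Nfkbie, and Nfkbib with Relb. In cKO ex vivo Nfkbia, at 1052 ± 125, overlapped with Tnfaip3, at 1118 ± 96.1. In WT stimulated Nfkb1 came after Tnfaip3 and Nfkbia, at 198 ± 18.3, overlapping with Rel at 197 ± 17.8. In cKO stimulated the order began likewise, with Tnfaip3 at 293 ± 58.5, Nfkbia at 255 ± 40.2 and Nfkb1 at 185 ± 24.8, and Nfkbie was lowest at 31.8 ± 6.03. There Tnfaip3 overlapped with Nfkbia, Nfkb1 with Rel, and Nfkbib with Nfkbie and Relb, so neither the first nor the last place was apart.

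Ratios within a library do not depend on the scaling between libraries. Rel made up 35.1% ± 1.45 of the summed TPM of the 5 subunit genes in WT ex vivo against 39.5% ± 0.646 in cKO, and after stimulation 31.0% ± 0.545 in WT against 30.5% ± 0.614 in cKO (SD, n = 3). The share was lower after stimulation by 6.54 percentage points when compared within genotype (two-sided exact permutation test, p = 0.005). Every cKO ex vivo library, from 38.95% to 40.2%, lay above the WT ex vivo libraries, from 33.4% to 36.1%. For genotype, compared within condition, the difference was 2.00 points (exact p = 0.085). The share of Nfkb1 went from 22.6% ± 1.06 to 31.1% ± 0.0893 in WT and from 20.2% ± 0.756 to 32.8% ± 1.11 in cKO. Rela made up 16.3% ± 0.849, 13.7% ± 0.261, 11.2% ± 0.491 and 11.7% ± 0.603 in the order given for Rel.

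The ratio of Nfkbia to Rela sets an inhibitor gene against the gene of the subunit its product binds. On the log2 scale it was 2.64, 2.97 and 3.12 in the WT ex vivo libraries and 3.45, 3.45 and 3.62 in the cKO ex vivo libraries, which did not overlap. After stimulation it was 1.87, 1.93 and 1.98 in WT and 1.83, 1.98 and 2.05 in cKO, where the groups overlapped. Stimulation, compared within genotype, went with a ratio lower by 1.27 (exact permutation test, two-sided, p = 0.005). For genotype, compared within condition, it was higher in cKO by 0.31 (exact p = 0.04), which came from 0.59 ex vivo and 0.026 after stimulation, each with 3 libraries against 3, where the exact p cannot go below 0.1. The genotype difference missed the threshold without cKO ex vivo 1, 2 or 3, WT stimulated 1 or cKO stimulated 3, with differences of 0.28 to 0.32 and exact p of 0.055 to 0.07. The shares of Rel and the ratios made a family of 4 tests. Adjusted over them by Benjamini-Hochberg, the exact permutation p of both stimulation differences was 0.01, and the genotype differences had 0.0533 for the ratio and 0.085 for the share, neither past the threshold.

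**Figure D4:**
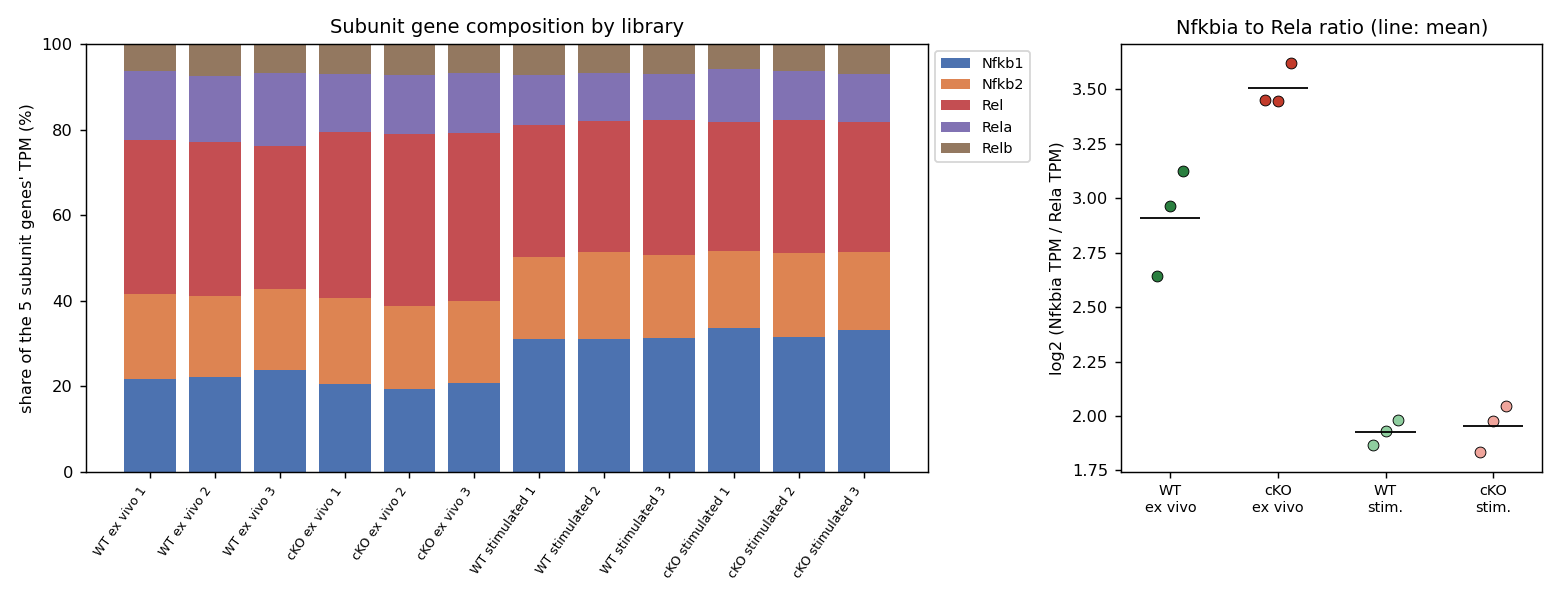
Left, share of each subunit gene in the summed TPM of the 5 subunit genes (vertical axis, percent) in each of the 12 libraries. Right, log2 ratio of Nfkbia TPM to Rela TPM by group, with points for libraries and a line for the mean. The share of Nfkb1 is larger in all 6 stimulated libraries, and the ratio is highest in cKO ex vivo.

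Leaving out the members, the genes whose profile across the 12 libraries was nearest to that of Nfkbia were Ahnak, Scd2, Fam110a, Phlda1 and Dusp14, with root mean square differences of the centred log2 values of 0.17, 0.17, 0.18, 0.20 and 0.21. Ahnak, a very large scaffold protein gene, averaged 93.02 scaled TPM in WT against 199 in cKO ex vivo, and 43.1 in WT against 40.3 in cKO after stimulation. Among the members Nfkbie was nearest, at 0.20, which is nearer than Dusp14, followed by Tnfaip3 at 0.39 and Nfkbiz at 0.47. Nfkb1 was farthest at 1.13.

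Around the members, genes that carry the signal from the receptor to IKK were lower in transcript after stimulation. Prkcq, Bcl10 and Malt1 were each called lower in WT and in cKO. Malt1, which encodes a protease, changed by -0.87 (adjusted p = 0.00025) in WT and by -1.39 (adjusted p = 9.7e-06) in cKO. Prkcq, the gene of the kinase PKCθ, changed by -0.79 (adjusted p = 0.00031) in WT and by -0.91 (adjusted p = 9.8e-05) in cKO. Bcl10, an adaptor gene, changed by -0.71 (adjusted p = 0.00397) and -0.98 (adjusted p = 0.00045). With the TPM as deposited the 3 calls in WT were lost, with adjusted p of 0.0504 to 0.0968, and under the 1 TPM filter that of Bcl10 was lost too (adjusted p = 0.0548). Ex vivo Malt1 was the only one of the 3 called between genotypes, higher in cKO by 0.67 (adjusted p = 0.00858). Of the 9 genes of the IKK kinases and their partners, 1 was called higher and 3 lower in WT, and 1 higher and 4 lower in cKO. Over all genes 12.7% were called higher and 19.3% lower in WT, and 17.3% and 26.5% in cKO, so these counts carry no result about the list. Ikbkb, the kinase subunit IKKβ, changed by -0.38 (adjusted p = 0.00201) in WT, a call that the 1 TPM filter did not make (adjusted p = 0.0715). Between genotypes only Ikbke was called, lower in cKO stimulated by 0.38 (adjusted p = 0.0198), and its call was lost in 5 of 12 fits with 1 library left out, with an adjusted p of 0.0893 without cKO stimulated 3. Under the 1 TPM filter none of the genes of these lists was called between genotypes.

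Of the 5 other IkB family and cofactor genes, 2 were called higher and 1 lower in each genotype, against 12.7% and 19.3% of all genes in WT and 17.3% and 26.5% in cKO. Nfkbid, whose product IkBNS acts in the nucleus and is known from Foxp3 induction, rose by 1.38 (adjusted p = 2.3e-05) in WT and 0.57 (adjusted p = 0.00463) in cKO, where the 1 TPM filter did not call it (adjusted p = 0.958). Bcl3 rose by 0.37 (adjusted p = 0.0158) and 0.30 (adjusted p = 0.0321), the latter turning negative under the 1 TPM filter, with no filter and with the TPM as deposited. Its call in WT was lost under the 1 TPM filter (adjusted p = 0.824). Nkrf, which encodes an NF-kB repressing factor, fell by 0.53 (adjusted p = 0.0161) in WT, called in 10 of 12 fits with 1 library left out, and by 0.60 (adjusted p = 0.00699) in cKO. The 1 TPM filter did not call Nkrf in WT (adjusted p = 0.0807). Of the 13 tested partners of A20 and ubiquitin editors, 4 were called higher and 5 lower in WT, and 3 higher and 5 lower in cKO, where over all genes 12.7% were higher and 19.3% lower in WT, and 17.3% and 26.5% in cKO. Zc3h12a, the gene of the RNase Regnase-1, fell with stimulation, by 1.71 (adjusted p = 1.5e-05) in WT and by 2.06 (adjusted p = 3.6e-06) in cKO. Tnip1, which encodes an A20-binding protein, had an interaction of -0.98 (adjusted p = 0.0422) and was called in 3 of 12 fits with 1 library left out. Among the 8 non-canonical regulators, 3 were called higher and 2 lower in WT, and 2 higher and 3 lower in cKO. Birc2, the gene of the ubiquitin ligase cIAP1, fell by 1.11 (adjusted p = 0.00012) in WT and by 1.59 (adjusted p = 9.1e-06) in cKO, and Ltb, the gene of lymphotoxin beta, by 1.04 (adjusted p = 0.00021) and 1.06 (adjusted p = 0.00016). Map3k14, the gene of the kinase NIK, was lower in cKO ex vivo, by 0.55 (adjusted p = 0.0233), a call held in 8 of 12 fits with 1 library left out (adjusted p = 0.0974 without cKO ex vivo 3). It rose with stimulation in WT by 0.67 (adjusted p = 0.00157) and in cKO by 0.81 (adjusted p = 0.0004), calls that the 1 TPM filter did not make (adjusted p = 0.380 and 0.465).

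Of 22 known target genes of NF-kB, 6 were called higher and none lower in cKO ex vivo, against 3.62% and 1.67% of all genes. The list was set with earlier results of these data known. It holds genes that the study itself reports as higher in cKO, such as Tnf and Tnfrsf4 (Ox40) ex vivo and Irf1 after stimulation. Its counts between genotypes are therefore not independent of those results. The largest changes were those of Ier3 at 1.48 (adjusted p = 0.0113), of Ebi3, a cytokine subunit made by Treg, at 1.19 (adjusted p = 0.00494), and of the transcription factor gene Irf4 at 1.12 (adjusted p = 0.00123). Ier3 stood at only 1.98 scaled TPM on 18 to 32 reads in WT ex vivo. It passed the filter through the cKO groups alone, with means of 8.12 TPM ex vivo and 6.80 stimulated against 1.85 and 3.71 in WT. The median over the 22 was 0.082. After stimulation 10 were called higher and 1 lower in cKO, against 3.30% and 3.63% of all genes, with a median of 0.60, while no member was called. However, Il2, Csf2, Ccl3 and Ccl4 averaged 5 TPM or more in cKO stimulated alone (8.88, 6.61, 6.04 and 6.56 TPM). They entered the tests only because they were high there, so the filter set part of this count and median. The cytokine genes Il2 and Csf2 were higher by 2.10 (adjusted p = 0.0209) and 1.55 (adjusted p = 0.0272), each called in 8 of 12 fits with 1 library left out and lost, for example, without cKO stimulated 1 (adjusted p = 0.131 and 0.114). In WT stimulated Il2 stood at 1.49 scaled TPM on 7 to 21 reads and Csf2 at 1.84 on 8 to 16. These levels are near the median of 0.993 TPM of the olfactory receptor genes there. The means in cKO stimulated were 9.62 and 7.23. Traf1, a signaling adaptor gene, was lower by 0.71 (adjusted p = 0.0034). None of the 22 was called between genotypes under the 1 TPM filter. With stimulation 10 of the 22 were called higher and 4 lower in WT, and 11 higher and 7 lower in cKO. Over all genes 12.7% were called higher and 19.3% lower in WT, and 17.3% and 26.5% in cKO. The limit on Il2, Csf2, Ccl3 and Ccl4 holds for the count in cKO too. Under the 1 TPM filter 2 were called higher and 3 lower in WT, and 3 higher and 7 lower in cKO.

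**Figure D5:**
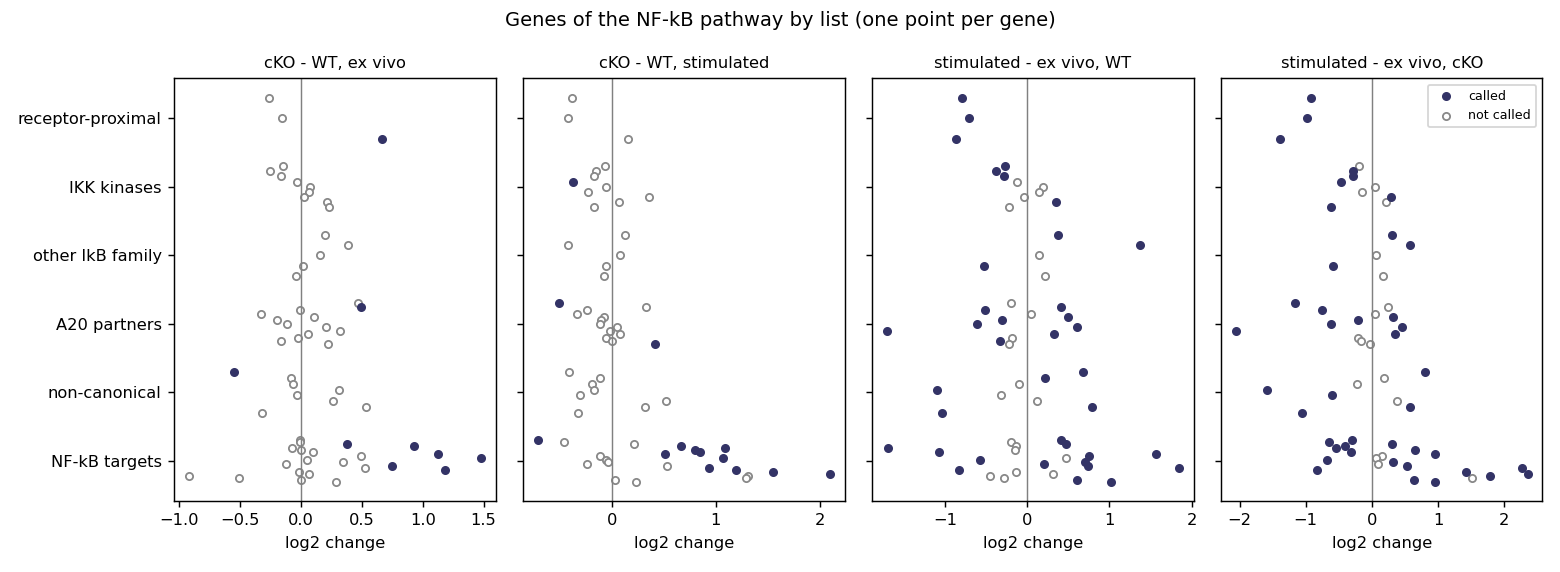
Log2 change of each gene (1 point per gene) of 6 lists of NF-kB pathway genes, in 4 comparisons from left to right: cKO against WT ex vivo, cKO against WT stimulated, stimulated against ex vivo in WT, and stimulated against ex vivo in cKO. Filled points are called. All 3 receptor-proximal genes lie left of 0 in both stimulation panels, and 10 target genes are filled on the right in the stimulated genotype panel.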

How the data were processed

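Per the labels and the study's methods, the authors depleted ribosomal RNA, made strand-specific libraries, aligned paired reads to mm9 with STAR 2.6.0c and counted them on exons with HTSeq 0.6.1, by strand. The table the authors deposited holds a signal per gene and library in TPM, which sums to 1000000, and a log2 column that adds the value of 1 read. The 2 columns gave back whole reads for 99.9977% of the values (tolerance 0.01). A table of the authors' own test in edgeR was not used. Positions come from GENCODE vM1 on mm9, and promoters from RefSeq.

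TPM were not treated as counts. The 13318 genes that averaged 5 TPM or more in any group were scaled by a trimmed mean of M-values (30% of M and 5% of A trimmed, factors 0.732 to 1.21), a pseudocount of 1 was added, and limma 3.58.1 (R 4.3.3) was fitted to the 4 groups with a mean-variance trend. The pseudocount makes the changes of low genes look smaller than they are. The 5 comparisons were 2 genotype effects, 2 stimulation effects and their interaction. In each of them the two-sided p-values were corrected by the Benjamini-Hochberg method. Within-library ratios were compared by exact permutation tests in Python 3.11.15. The replicates were separate mice. PCR copies of a read could not be told from separate molecules.

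The members, the lists and the 5 TPM filter were chosen with earlier results of these data known, and this filter, in part through the scaling factors it sets, calls more genes in the genotype comparisons than the 1 TPM filter. Of each list and comparison, up to 3 called genes in each direction with the largest change could be named, beside all members, the 5 nearest profiles, Ikzf1 and the markers. One item of the lists is not reported here. Otulin and Adgre1 were listed under older symbols. Alternatives were the filter, with the genes tested and the factors also changed singly (added after the data were seen), pseudocounts of 0.1 and 5, other scalings, voom on recovered reads, no trend, 2 groups only, each library left out and a replicate block. Tested on simulated data, the fit recovered most genes given a 4-fold change but missed many given a 2-fold change, after which the bar for passing was kept for the larger change alone, so a gene that was not called may still have changed.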

Additional observations from a re-analysis of the deposited data

Results flagged for a closer look

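The difference of the stimulation effect between cKO and WT passed the test of the interaction for 3 of the 10 members and for 2 named genes of the pathway lists, where 1.10% of all genes tested passed it. It was -1.25 for Nfkbie, -0.89 for Relb and -0.98 for Nfkbia, on the log2 scale. Among the A20 partners it was -0.98 for Tnip1. Among the NF-kB target genes it was 1.16 for Lta, the gene of lymphotoxin alpha, which fell by 1.69 with stimulation in WT and by 0.54 in cKO. None of the 5 was called under the 1 TPM filter. With single libraries left out, Nfkbie lost its call in 7, Relb in 9 and Nfkbia in 10 of 12 fits, while Tnip1 was called in 3 and Lta in 1 of them.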

How the results depend on the processing

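The number of members called ex vivo, 4 as reported, was 0 with the 1 TPM filter and with no filter, 2 with the TPM as deposited, 7 with voom on recovered reads and 8 with quantile normalization, and 2 to 6 with a library left out. Over all genes these fits called 57, 56, 273, 1203 and 673, a comparison of 2 groups only called 401, and leaving out a library gave 331 to 740. After stimulation quantile normalization called 1 member and leaving out a library 0 to 1. The genes called were 68 with the 1 TPM filter, 68 with no filter, 306 with the TPM as deposited, 1579 with quantile normalization, 552 with 2 groups only and 424 to 990 with a library left out. For stimulation in WT the 1 TPM filter and no filter called 2 members each and 1838 and 1694 genes, and the TPM as deposited 1943 genes. In cKO quantile normalization called 5 members. Leaving out a library gave 6 to 7 members in WT and 6 to 9 in cKO, and 3234 to 4383 and 4131 to 5956 genes. For the interaction the 1 TPM filter and no filter called 0 members and 0 genes by limma, with 2405 and 2686 genes at an unadjusted p under 0.05. The other fits called 67 genes (TPM as deposited), 392 (quantile normalization), 395 with 6 members (voom), 95 with 1 member (no trend), and 56 to 208 with 0 to 5 members (a library left out). The fits that change only the genes tested or only the scaling factors were added after the data were seen. The 33873 genes with the factors of the 5 TPM genes gave 390 genes ex vivo and 600 after stimulation, and 74 with 1 member for the interaction. The 13318 genes with the factors of the 1 TPM genes gave 92 genes and 0 members ex vivo, 157 genes after stimulation, 2523 in WT, and 0 genes and 0 members for the interaction by limma, with 1389 genes at an unadjusted p under 0.05. The genotype difference of the Nfkbia to Rela ratio was 0.24 to 0.36 with a library left out.

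Signs turned as follows, on the log2 scale, and the cause was not tested. With quantile normalization the genotype effect after stimulation was 0.028 for Nfkb1, 0.090 for Rela and 0.11 for Nfkbia. The genotype effect ex vivo was 0.23 for Tnfaip3, and the stimulation effect was 0.27 for Rela in WT and 0.35, 0.076, 0.068 and 0.029 for Nfkb2, Rel, Rela and Relb in cKO. The interaction was 0.0054 for Nfkbiz. With the TPM as deposited, at which the median over all genes was 0.21, -0.30, 0.18, -0.31 and -0.52 in the 5 comparisons, Tnfaip3 was 0.15 ex vivo, Nfkbiz -0.060 between genotypes after stimulation, Rela 0.11 in WT, and Bcl3 -0.022 and Tab1 -0.0026 in cKO. With the 1 TPM filter and with no filter, Nfkbiz was -0.075 and -0.072 between genotypes after stimulation, and Nfkbib -0.049 and -0.022 in WT. In cKO Nfkb1 was -0.11 and -0.10, Bcl3 -0.23 and -0.22, Otud7b -0.052 and -0.042, Rnf11 and Tab1 both -0.19 and -0.18, and Rnf31 -0.18 and -0.17. Traf2 in WT was -0.021 with the 1 TPM filter. The signs that turned with that filter turned to the same values when only its factors were used. With a library left out, the genotype effect after stimulation ran from -0.20 to 0.025 for Nfkb1, -0.22 to 0.046 for Rela, -0.21 to 0.026 for Nfkbia and -0.32 to 0.027 for Nfkbib, and the stimulation effect in WT from -0.16 to 0.015 for Rela.

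Equal replicate numbers did not pair the libraries: correlations of deviations ran from -0.21 to 0.26 over 18 pairs, with 2 over 0.1. With the replicate block the interaction called 0 members and 65 genes (adjusted p of 0.0549 for Nfkbie, 0.0746 for Relb, 0.115 for Nfkbia, 0.0986 for Tnip1 and 0.0977 for Lta), and the members called in the other 4 comparisons numbered 4, 0, 6 and 9, as without it. Among the target genes Il2 lost its call between genotypes after stimulation with the block (adjusted p = 0.0544).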
